A study of Mus musculus with 66 samples.

Results

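This comparison sets mutant (MUT) against wild-type (WT) motor neuron progenitors, sorted from mouse embryonic stem (ES) cell cultures on day 7 of differentiation towards ventral spinal cord. It uses 6 of the 66 RNA libraries of the series, namely 3 MUT and 3 WT libraries carrying the labels D7, pM and NFIAn, paired by replicate number. Both genotypes received bFGF at 10 ng/ml at plating, CHIR99021 (5 µM, blocking GSK3) from day 2, 100 nM retinoic acid between day 3 and day 5, and from day 3 onwards 10 nM SAG, which activates Smoothened. Cells were fixed in glyoxal, stained, and sorted in lots of 10000 to 15000. NFIAn cells fell below the gate for NFIA protein, a DNA-binding regulator that starts gliogenesis, and both genotypes carry that label here. Which gene is mutated is not named in the labels, nor whether the mutant line is 1 clone. Nor do they state whether replicates are separate differentiations, so the p-values speak of the spread among these 6 libraries alone, which may be technical.

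In the ventral neural tube, Sonic hedgehog signalling divides progenitors into domains that each express a set of transcription factors. Progenitors of the motor neuron domain express Olig2 and Nkx6-1, first yield motor neurons marked by Isl1, Lhx3 and Mnx1, and later yield oligodendrocyte precursors. NFIA and its relatives Nfib and Nfix come on as neurogenesis gives way to gliogenesis, so NFIA-negative cells on day 7 belong to the neurogenic period.

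The sorted cells carried the markers their label calls for. Summed over Olig2, Olig1, Nkx6-1 and Nkx6-2, normalised read counts ran from 1862 to 2000 in MUT and from 1815 to 1928 in WT libraries. Motor neuron markers (Isl1, Mnx1, Lhx3, Chat and Slc18a3) summed to 10509 to 11347 in MUT and 10512 to 13030 in WT, so RNAs of motor neurons were present in the sort of both genotypes. Whether newly born neurons or progenitors held these RNAs was not tested. Neuron markers (Tubb3, Dcx, Elavl3, Elavl4 and Stmn2) summed to 21241 to 26007 in MUT and 17968 to 30998 in WT. The 3 neural crest, 3 pluripotency and 4 endoderm markers summed to at most 26.7 in any library, the 4 markers of blood and endothelium to at most 28.5, and Ptprc and Afp were listed at 0 in all 6 libraries. Markers of neighbouring domains were present, and Dbx2 of the p0 and p1 domains, at 277 to 475, exceeded Nkx6-1, at 157 to 302. Markers of the p3, p2 and p0/p1 domains summed to 27.6 to 244, 11.3 to 107 and 442 to 792 in MUT and to 152 to 260, 23.0 to 104 and 367 to 769 in WT. The 5 mesenchyme markers summed to 90.6 to 593 in MUT and 27.7 to 465 in WT, and their part in the results was not tested.

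The 6 libraries held 22.4 to 26.8 M reads and 13499 to 15025 detected genes. Replicate 3 of both genotypes stood apart. Its normalised total was 37.4 to 37.9 M against 19.5 to 21.8 M in replicates 1 and 2, and ribosomal protein genes took 16.3 to 17.7% of it against 6.25 to 9.42%. Deviations from the genotype means correlated over genes between libraries of the same number, with r = 0.32, 0.27 and 0.47 for replicates 1, 2 and 3. Between numbers, MUT 1 with WT 2 reached 0.28 and MUT 2 with WT 1 0.17, so replicates 1 and 2 are not told apart, while the 4 pairings of replicate 3 with another number ran from -0.39 to -0.28. The replicate number was kept as a block in the test.

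A total of 366 of 13236 tested genes (2.77%) differed between MUT and WT at an adjusted p below 0.05 (limma on log2(normalised count + 1), replicate block). Of these, 198 (1.5%) were higher and 168 (1.27%) lower in MUT. Differences were mostly modest, with a median of 0.69 among the higher and -0.74 among the lower genes on the log2 scale, and 45 and 42 of them exceeded 1 in size. All 3 replicate pairs went in the called direction for 363 of the 366 genes. That adds no support, since the calls come from a test of these same pairs. The libraries of the genotypes did not overlap for 185 called genes, and they did not overlap for 9.13% of all tested genes. The block carries much of this. Without it, only Grb10 and Xlr3a passed. Leaving out replicate 1, 2 or 3 of both genotypes gave 114, 438 and 401 calls, of which 86, 256 and 232 were among the 366. As in any bulk sample, fewer cells of a type and less RNA per cell cannot be told apart.

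**Figure D1:**
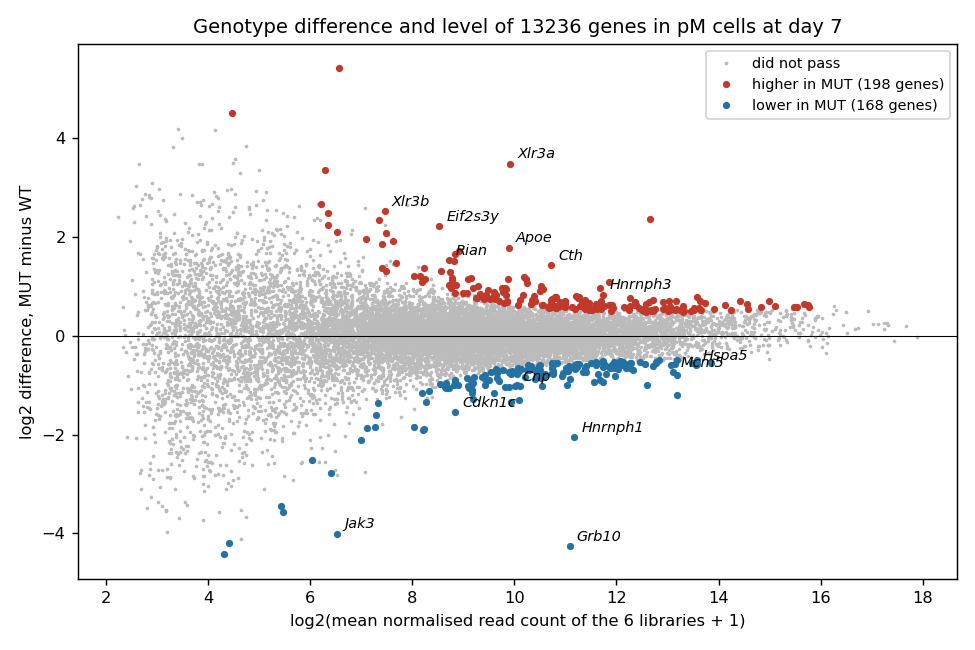
Difference between genotypes (log2, MUT minus WT, vertical axis) against mean level of each tested gene in the 6 libraries (log2, horizontal axis), with the 198 higher genes in red and the 168 lower genes in blue. Grb10 lies farthest below zero among genes of high level, at -4.26, and Xlr3a stands out above it at 3.48.

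Grb10 was the most strongly lowered gene of appreciable level. It encodes an adaptor protein that binds the insulin and IGF1 receptors and restrains growth, it is imprinted, and it lies on chromosome 11 (11930508 to 12038683, GRCm38). Its normalised read counts were 317, 209 and 125 in MUT replicates 1 to 3 and 5074, 4856 and 2411 in WT replicates 1 to 3. The genotypes were far apart in every pair, at 19.2-fold lower in MUT (log2 difference -4.26 ± 0.18 SE, n = 3 pairs, limma adjusted p = 4.38e-14). Ddc, the neighbouring gene for aromatic amino acid decarboxylase, did not pass (log2 difference 0.14 ± 0.15, adjusted p = 0.671 in limma).

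Other imprinted genes differed in both directions. Of 46 tested members of the imprinted list, 6 were higher and 3 lower, against 1.5% and 1.27% of all genes, with a list median of 0.24 beside 0.04 over all genes. Cdkn1c, which encodes the cyclin-dependent kinase inhibitor p57, fell from 701, 502 and 842 in WT to 283, 167 and 251 in MUT. The libraries did not overlap, and the difference was -1.55 ± 0.24 (limma adjusted p = 0.000924). Kcnq1ot1, the imprinted antisense RNA of the same cluster, had a difference of 0.30 ± 0.19 and did not pass.

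Genes of the Dlk1-Meg3 cluster on chromosome 12 rose together. Rian, a noncoding RNA, stood at 696, 537 and 619 in MUT against 153, 260 and 241 in WT, a rise of 1.53 ± 0.26 (limma adjusted p = 0.00239). Dlk1, a membrane protein related to the Notch ligands, stood at 817, 872 and 582 in MUT against 384, 370 and 263 in WT, a rise of 1.15 ± 0.22 (limma adjusted p = 0.00489). Meg3, the noncoding RNA between them, rose by 0.98 ± 0.24 (limma adjusted p = 0.0252). For all of them every MUT library lay above every WT library. The remaining calls of the list were Gnas (0.59), Mcts2 (0.62) and Sgce (0.50) upward and H13 (-0.75) downward. Mcts2 lies inside an intron of H13, so reads of this overlapping pair may be split wrongly. The counts of the list without replicate 1 were 1 higher and 3 lower, and without replicate 3 they were 9 higher and 2 lower. Parental origin of the RNA cannot be read from these values.

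**Figure D2:**
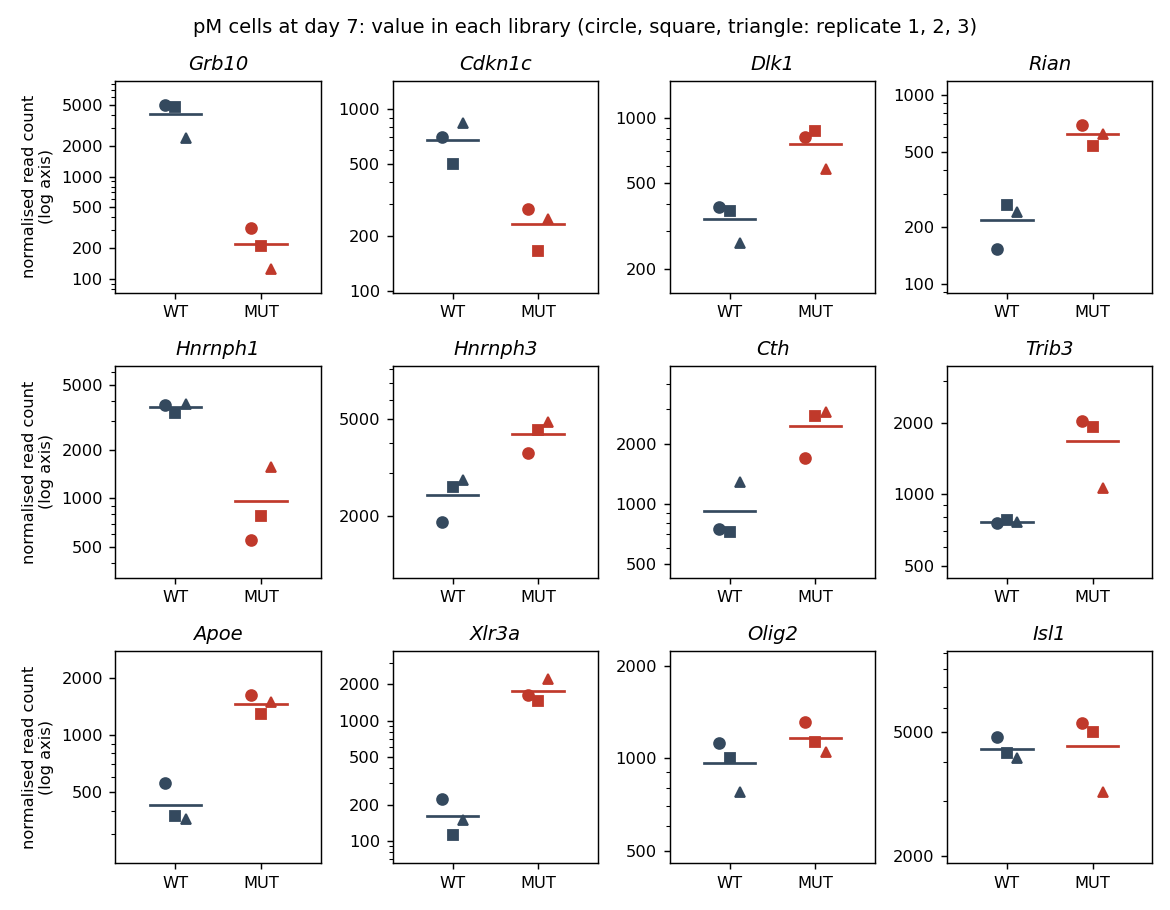
Normalised read count of 12 genes in each library (log axis), with WT in dark grey and MUT in red, a symbol for each replicate number, and a bar at the genotype mean. Grb10, Cdkn1c and Hnrnph1 are lower in every MUT library and Dlk1, Rian, Hnrnph3, Cth, Trib3, Apoe and Xlr3a higher, while Olig2 and Isl1 overlap.

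A pair of closely related splicing regulators moved in opposite directions. Hnrnph1 (chromosome 11, 50376990 to 50386528) encodes hnRNP H, a protein that binds G-rich RNA and steers exon choice. It stood at 551, 783 and 1558 in MUT and at 3785, 3346 and 3846 in WT, 4.16-fold lower in MUT (log2 difference -2.06 ± 0.19, limma adjusted p = 4.82e-07). Hnrnph3, a shorter member of the same family on chromosome 10, stood at 3619, 4526 and 4850 in MUT and at 1897, 2631 and 2821 in WT, a rise of 0.83 ± 0.14 (limma adjusted p = 0.00147). Neither gene's libraries overlapped between genotypes. The relatives Hnrnph2 and Hnrnpf had differences of 0.07 and -0.28 and did not pass. Among 26 tested heterogeneous ribonucleoprotein genes only Hnrnpul2 also passed, at 0.77 ± 0.20, and the list median was -0.02. Of all tested genes 2.77% passed.

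The largest rise among called, annotated genes whose higher genotype averaged 50 or more and whose genotypes did not overlap was that of Xlr3a, an X-linked lymphocyte-regulated gene of a multicopy family on the X chromosome (73086293 to 73097095). It stood at 1643, 1445 and 2218 in MUT and at 224, 111 and 149 in WT, 11.2-fold higher in MUT (log2 difference 3.48 ± 0.23, limma adjusted p = 5.09e-10). Its copy Xlr3b stood at 388, 291 and 217 in MUT and at 63.9, 50.3 and 38.4 in WT, a rise of 2.52 ± 0.40 (limma adjusted p = 0.00097). Xlr4a, from the same region, was at 17.5, 18.3 and 87.8 in MUT and 5.97, 1.65 and 0 in WT and did not pass, and Xlr3c fell below the filter on low values.

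The promoter windows of the 2 Xlr3 copies that passed are closely alike where they align. Transcripts of the copies, from which the reads come, were not compared. Over 237 aligned bases of their promoter windows, from 250 bases before to 50 after the gene start (RefSeq, GRCm38.p6), 94.1% were identical. They are shown here, each on its gene's strand, with the longest run of 58 bases shared by both in capitals. Xlr3a is at chrX:73097046-73097345 on the minus strand and Xlr3b at chrX:73191929-73192228 on the plus strand.
Xlr3a: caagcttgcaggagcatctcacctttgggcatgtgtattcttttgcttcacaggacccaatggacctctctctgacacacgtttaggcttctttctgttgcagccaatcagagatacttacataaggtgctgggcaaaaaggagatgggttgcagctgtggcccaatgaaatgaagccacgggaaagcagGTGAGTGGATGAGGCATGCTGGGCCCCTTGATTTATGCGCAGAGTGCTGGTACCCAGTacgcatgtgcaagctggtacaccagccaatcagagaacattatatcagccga
Xlr3b: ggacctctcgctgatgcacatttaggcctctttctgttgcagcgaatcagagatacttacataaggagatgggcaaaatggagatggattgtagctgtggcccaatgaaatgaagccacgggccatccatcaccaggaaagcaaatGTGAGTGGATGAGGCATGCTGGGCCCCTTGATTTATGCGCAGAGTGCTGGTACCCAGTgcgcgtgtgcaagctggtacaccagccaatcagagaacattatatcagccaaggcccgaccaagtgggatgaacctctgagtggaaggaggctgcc
How reads that match both copies were counted is not given in the sources used here, so the split between Xlr3a and Xlr3b is uncertain, while both columns of values point upward.

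Of 3 tested Y-linked genes, 2 also passed as higher in MUT, against 1.5% of all genes. Eif2s3y, the Y copy of a translation initiation factor gene, stood at 656, 634 and 513 in MUT and at 101, 105 and 195 in WT (rise of 2.22 ± 0.30, limma adjusted p = 0.000181). Ddx3y, the Y copy of an RNA helicase gene, stood at 237, 98.9 and 108 in MUT and at 61.4, 25.5 and 18.4 in WT (rise of 2.11 ± 0.52, limma adjusted p = 0.0268). The libraries of both genes separated by genotype, but the call of Ddx3y was unstable. It passed in 4 of 12 alternatives, and Eif2s3y passed in 12 of 13. Uty, the remaining Y gene tested, had a difference of 0.69 ± 0.56 and did not pass, and reads from the X copies of these genes may be shared. Xist was at most 2.83 in any library.

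Some genes of the integrated stress response rose. In this response, kinases that sense amino acid shortage or misfolded protein raise translation of the transcription factor ATF4, which drives amino acid synthesis and transport genes. Of 23 tested members of the list, 7 rose and none fell, against 1.5% and 1.27% of all genes, 21 had a positive difference, and the list median was 0.48 beside 0.04 over all genes. Cth, the cystathionine gamma-lyase that makes cysteine, stood at 1700, 2745 and 2887 in MUT and at 748, 721 and 1283 in WT (rise of 1.43 ± 0.17, limma adjusted p = 3.25e-05). Trib3, a pseudokinase induced by ATF4, stood at 2038, 1919 and 1066 in MUT and at 757, 776 and 768 in WT (rise of 1.07 ± 0.19, limma adjusted p = 0.0024). In both genes each MUT library exceeded its WT partner, and the genotypes did not overlap.

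Nupr1, a small stress-induced nuclear protein, rose by 2.49 ± 0.56 from 16.2, 18.9 and 39.9 in WT to 147, 126 and 132 in MUT. It passed in 8 of 13 alternatives, and not without replicate 1 or without replicate 2. The rises of Ddit3, which encodes the transcription factor CHOP, Chac1, which degrades glutathione, Slc7a3, a transporter of cationic amino acids, and Psph, the last enzyme of serine synthesis, were 0.84, 0.69, 0.82 and 0.55. Atf4 itself, at 0.24 ± 0.13 (limma adjusted p = 0.35), did not pass, and Phgdh and Psat1 of serine synthesis were at 0.07 and 0.04. The list held 3 calls without replicate 1 and 8 without replicate 3, and its median was 0.61, 0.51 and 0.12 in pairs 1, 2 and 3.

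The promoters of some of these genes hold the composite site to which ATF4 and C/EBP family proteins bind as pairs. The motif TGATGNAA was searched on both strands of the RefSeq windows of GRCm38.p6 that run from 250 bases before to 50 after the gene start. It was present in 3 of the 5 called members that have a window and in 7 of the 20 tested members that do, against 4.51% of the 27025 genes that have a RefSeq window. The 3 matches are shown on their genes' strand with the motif, here in reverse orientation, in capitals. That of Trib3 begins 14 bases after the start (chr2:152344013-152344072, minus), that of Chac1 193 bases before it (chr2:119351023-119351082, plus) and that of Nupr1 110 bases before it (chr7:126625547-126625606, minus).
Trib3: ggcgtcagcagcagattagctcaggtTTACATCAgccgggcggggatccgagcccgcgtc
Chac1: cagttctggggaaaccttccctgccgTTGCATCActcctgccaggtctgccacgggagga
Nupr1: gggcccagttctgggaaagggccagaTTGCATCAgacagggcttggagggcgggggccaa
A match describes letters in a window and is no measurement of binding. The list was written from textbook knowledge, so an excess of the motif in it is no result of these data. Activity of ATF4 was not tested.

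Some genes of the unfolded protein response fell. Of 21 tested members of the heat shock and unfolded protein list, 4 fell, against 1.27% of all genes, and none rose, with a list median of -0.31. The 4 serve protein folding in the endoplasmic reticulum. Xbp1, its transcription factor, stood at 2488, 3429 and 3658 in MUT and at 4108, 4498 and 6782 in WT (-0.67 ± 0.14, limma adjusted p = 0.0104). Hspa5, the chaperone BiP, fell by 0.59, Pdia4, a disulfide isomerase, by 0.56 and Calr, the chaperone calreticulin, by 0.50. With the median of each chromosome taken out of every library 1 call of the list was left and the list median was -0.28. Without replicate 1 no member passed.

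Of 81 tested ribosomal protein genes 13 rose, against 1.5% of all genes, and none fell. A positive difference was measured for 80, and the list median was 0.41. Rpl17 stood at 14283, 13642 and 52085 in MUT and at 9017, 7490 and 35414 in WT. Replicate 3 lay far above the others in both genotypes, so the groups overlap, yet within each pair MUT was higher (rise of 0.69 ± 0.14, limma adjusted p = 0.00832). Rps24, Rps15a and Rpl22l1 rose by 0.64, 0.62 and 0.56. As a share of the library, ribosomal protein genes took 9.42, 8.45 and 17.7% in MUT and 7.34, 6.25 and 16.3% in WT. The count is unstable, at 0 calls without replicate 1 and 22 without replicate 3, and these genes share sequence with many pseudogenes.

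Transcript length and GC content of the called genes were also compared with those of all tested genes. Genes higher in MUT had a median longest transcript of 2026 bases and a GC content of 46.9%. All tested genes stood at 3386 bases and 49.8%, and lower genes at 3405 bases and 53.6%. Across all tested genes the difference hardly followed length (Spearman correlation -0.028 over all pairs). That correlation was -0.297 in pair 2 but 0.0963 in pair 1 and 0.0844 in pair 3. With GC content it was -0.186 over all pairs and negative in each pair. With the trend on length and GC content removed from each library, also chosen after seeing the data, 215 genes passed, of which 158 were among the 366, and the median of the ribosomal protein genes was 0.29.

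Some genes of DNA replication fell. Of 30 tested S phase genes 5 fell, against 1.27% of all genes, and none rose. The list median was -0.20 overall and -0.32, -0.18 and -0.02 in pairs 1, 2 and 3. Mcm5, a subunit of the replicative helicase, stood at 5414, 7804 and 6742 in MUT and at 9812, 11407 and 11846 in WT (-0.74 ± 0.13, limma adjusted p = 0.00376). Mcm10, a factor that starts the helicase, stood at 610, 711 and 466 in MUT and at 1035, 1324 and 717 in WT (-0.76 ± 0.19, limma adjusted p = 0.0264). In both, every MUT library lay below every WT library. Mcm2, the loading factor Cdc6 and the flap nuclease Fen1 fell by 0.55, 0.64 and 0.53. Mcm2 passed in 7 of 14 alternatives and Fen1 in 6 of 14. Of 30 tested genes of G2 and M phase only Ndc80, a kinetochore protein, passed (0.69), against 2.77% of all genes. Ccnd1, the cyclin of G1 entry, rose by 0.59 ± 0.15. Both calls were unstable, with Ndc80 passing in 5 of 14 alternatives and Ccnd1 in 7 of 14. No S phase gene passed without replicate 1, 3 did without replicate 3, and 1 did with chromosome medians taken out, where the list median stayed at -0.20.

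**Figure D3:**
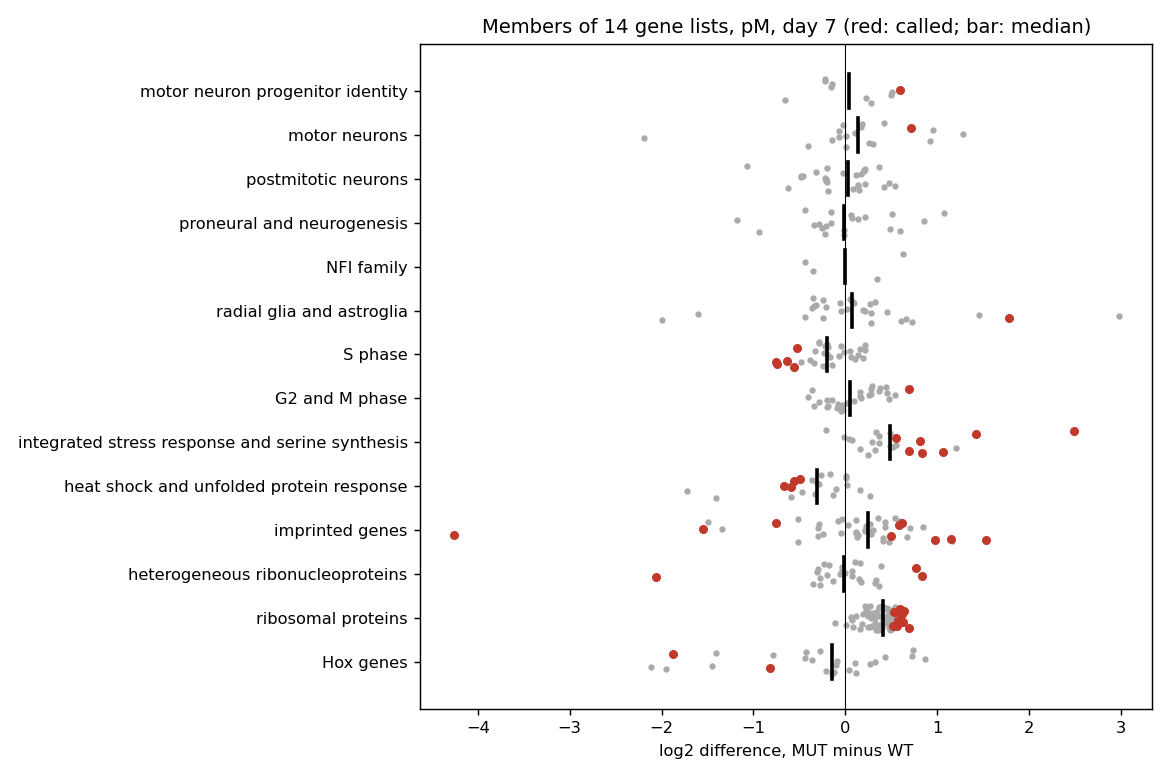
Log2 difference (MUT minus WT) of each tested member of 14 gene lists, with called genes in red, others in grey and a bar at the list median. Members of the stress response (median 0.48) and ribosomal protein (0.41) lists lie mostly to the right of zero and S phase genes (-0.20) to the left, while motor neuron and NFI lists centre near zero.

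The defining regulators of the domain and of glial onset did not pass. Of the 41 fixed regulators and markers 4 passed, against 2.77% of all genes, Sp8 and Ccnd1 upward and Grb10 and Hoxc8 downward. Olig2, the defining factor of the domain, stood at 1315, 1132 and 1049 in MUT and at 1124, 1005 and 776 in WT, with overlapping libraries (0.28 ± 0.17, limma adjusted p = 0.399). Olig1 was at -0.66 ± 0.24, Nkx6-1 at 0.23 ± 0.32 and Irx3 at -0.15 ± 0.36, and none passed. Pax6, which the domain expresses at a moderate level, stood above WT in every MUT library (0.51 ± 0.17) but did not pass (limma adjusted p = 0.0931). Sp8, a transcription factor of spinal progenitors, rose from 2414, 1853 and 1790 in WT to 3585, 2467 and 3115 in MUT (0.59 ± 0.14, limma adjusted p = 0.0252). It passed in 7 of 14 alternatives, and not without replicate 1, without replicate 3 or with chromosome medians taken out.

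Levels of the 4 NFI genes were low in both genotypes. Nfia stood at 128, 92.5 and 68.0 in MUT and at 98.9, 94.7 and 41.5 in WT (0.34 ± 0.47, limma adjusted p = 0.751), and Nfib, Nfix and Nfic did not pass either. The standard errors of those others ran from 0.86 to 1.46 on the log2 scale, so these values do not settle whether they changed. Progenitor and radial glial genes Sox2 (0.43), Sox9 (-0.25), Fabp7 (0.28), Slc1a3 (0.73) and Hes5 (-0.35) did not pass. In the list of 29 radial glial and astroglial genes the only call was Apoe, a lipid carrier, against 2.77% of all genes. It stood at 1615, 1279 and 1484 in MUT and at 556, 374 and 361 in WT (rise of 1.78 ± 0.19, limma adjusted p = 3.86e-06). Of 10 tested oligodendrocyte genes 1 passed, against the same 2.77%. That gene, Cnp, a myelin-associated phosphodiesterase on chromosome 11, fell by 1.03 ± 0.18, with 638, 643 and 751 in MUT against 1554, 1157 and 1450 in WT.

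None of 21 proneural and neurogenic genes and none of 28 postmitotic neuron genes passed, with list medians of -0.02 and 0.03. Neurog2 was at -0.22 ± 0.14 and Dll1 at -0.16 ± 0.16. Isl1, the first factor of newborn motor neurons, stood at 5375, 4997 and 3220 in MUT and at 4841, 4297 and 4124 in WT, with a difference of 0.00 ± 0.14 (limma adjusted p = 0.994). The list of 18 motor neuron genes held 1 call, against 2.77% of all genes. It was the orphan receptor Nr2f1, which also belongs to the retinoic acid list and rose by 0.71 ± 0.17. Timing genes Lin28a (-0.23), Lin28b (0.24), Hmga2 (0.32) and Nr6a1 (-0.47) did not pass.

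In signalling and positional lists, 2 of 19 retinoic acid, 1 of 22 FGF and 2 of 25 Hox genes passed, against 2.77% of all genes. In the retinoic acid list, Crabp1, which binds retinoic acid in the cytoplasm, rose by 0.70 ± 0.14 together with Nr2f1. The call of the FGF list was Fgfbp3, a carrier protein of FGFs, which stood at 1887, 1624 and 2331 in MUT and at 1026, 701 and 1206 in WT (rise of 1.01 ± 0.16, limma adjusted p = 0.00097). Fgfbp3 also belongs to a list of dosage and strain markers. Of its 11 tested members 4 rose, against 1.5% of all genes, namely Ddx3y, Eif2s3y, Fgfbp3 and Wdfy1, with a list median of 0.57. A part of strain in these differences was not tested. None of the 16 tested hedgehog genes passed, with Gli1 at 0.17 ± 0.31 and Ptch1 at -0.66 ± 0.47. Of the Hox genes Hoxc8 (-1.88 ± 0.39) and Hoxa7 (-0.81 ± 0.17) fell and none rose. Hoxc8 was at 364, 38.5 and 106 in MUT against 469, 410 and 398 in WT, so its size rests on replicates 2 and 3, and it did not pass without replicate 2.

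Further large differences were scattered over functions. Among the 12 highest rises were Pla2g1b, a secreted phospholipase (2.66), Myo5b, a vesicle motor (2.35), the zinc finger gene Zfp934 (2.24), Dppa4, a gene of early embryos (2.07), Adssl1, an enzyme of purine synthesis (1.96), Nexn, an actin-binding protein (1.92), and Apobec2, a member of the cytidine deaminase family (1.86). Dppa4 stood at 230, 348 and 280 in MUT and at 88.6, 62.6 and 52.2 in WT, while the pluripotency markers Pou5f1, Nanog and Zfp42 stayed below the filter. Zfp934 (1.49 to 3.03) passed in 5 of 13 alternatives.

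Among the 12 largest falls were Jak3, a cytokine receptor kinase (-4.01), Plcd3, a phospholipase C (-3.56), the hydrolase Nudt12 (-3.44), Nqo1, a quinone reductase (-2.77), Adamts7, a secreted protease (-2.11), Lpl, lipoprotein lipase (-1.85), Pcx, pyruvate carboxylase (-1.61), and Myo19, a mitochondrial motor (-1.37). Jak3 was at 26.7, 34.8 and 0 in MUT and at 133, 202 and 151 in WT. Some of these falls depend on the processing, and Nudt12 (-4.66 to -1.77) passed in 3 of 13 alternatives. Plcd3 (-5.20 to -2.24), Pcx and Myo19 each passed in 5 of 13. Jak3, Nqo1 and Lpl lie on chromosome 8 and Plcd3 and Myo19 on chromosome 11. Some of the smallest p-values fell to genes of high level, picked here after their values were seen. Rbm3, a cold-induced RNA-binding protein, fell by 1.19 ± 0.15, the methionine adenosyltransferase gene Mat2a by 1.00 ± 0.13, and the initiation factor gene Eif4a2 rose by 1.09 ± 0.14.

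Lower genes were concentrated on a pair of chromosomes. Chromosomes 8 and 11 held 99 of the 168 lower genes (58.9%) but only 1785 of the 13236 tested genes, so 5.55% of their genes were lower against 0.599% on the other chromosomes. On chromosome 8, 48 of 711 tested genes were lower and none higher, 72.7% of all its genes had a negative difference, and the median difference was -0.20. On chromosome 11, 51 of 1074 were lower and 5 higher, with a median of -0.19. Chromosome 13 went the other way, with 26 of 507 genes higher, none lower and a median of 0.17. The medians of the remaining numbered chromosomes lay between -0.02 on chromosome 6 and 0.11 on chromosome 18, and that of the X was 0.11.

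**Figure D4:**
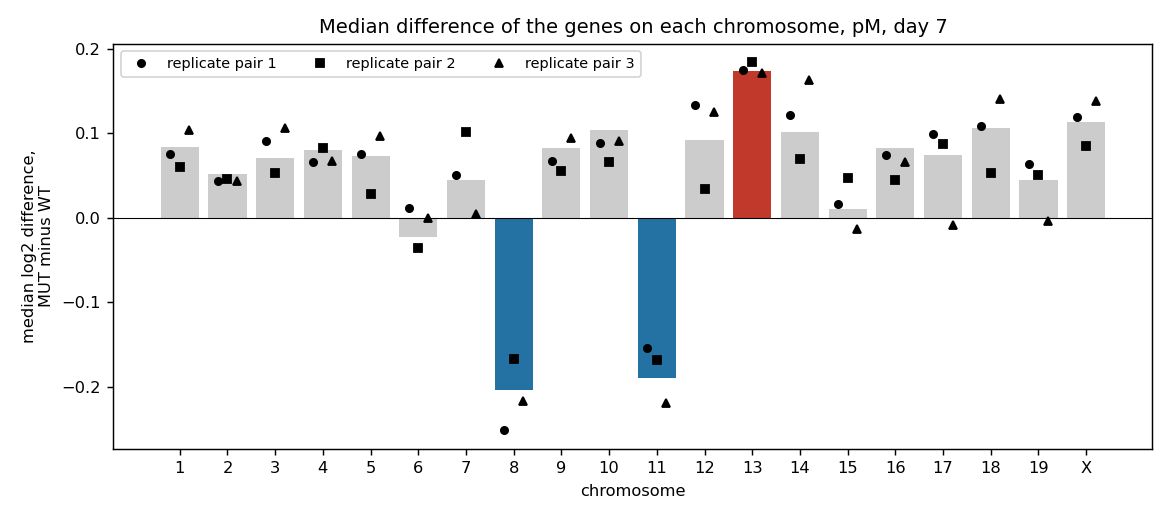
Median log2 difference (MUT minus WT) of the tested genes on each chromosome, with bars for the 3 pairs together and a symbol for each replicate pair. Chromosomes 8 and 11 (blue) are below zero and chromosome 13 (red) above it in all 3 pairs.

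The shift had the same sign in all pairs and along each chromosome, and differed in size along them. For chromosome 8 the medians of pairs 1, 2 and 3 were -0.25, -0.17 and -0.22, and for chromosome 11 they were -0.15, -0.17 and -0.22. Over 3 equal runs of genes in chromosome order, the medians were -0.16, -0.21 and -0.24 on chromosome 8, -0.14, -0.17 and -0.24 on chromosome 11, and 0.09, 0.19 and 0.25 on chromosome 13. The same sign appeared in libraries that this comparison does not use. Between MUT and WT pM cells of day 5 the medians were -0.28 for chromosome 8 and -0.17 for chromosome 11, and on day 9 they were -0.26 and -0.22. Chromosome 6, at -0.02 on day 7, had medians of -0.22 on day 5 and -0.09 on day 9. With chromosome medians taken out of each library, an alternative chosen after seeing the data, 147 genes passed, 140 of them among the 366. Lower calls then numbered 55. The source of the shift was not tested.

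The genotype difference in motor neuron progenitors was not shown to differ from that in the neighbouring domains. A test of the pM difference against the mean of the p1 and p2 differences on day 7, over 18 libraries, called none of 13236 genes (0%) in limma, 466 genes had an unadjusted p below 0.05, and edgeR also called none. The smallest p-values belonged to Vill, Zc3hav1, Vps37a, Sh2d5 and Alg1, each with an adjusted p of 0.999 in limma. In the fit of those 18 libraries p1 and p2 gave 104 (0.786%) and 437 (3.3%) calls, of which 45 (0.34%) and 145 (1.1%) were lower in MUT. The same fit gave 349 calls in pM, against 366 in the fit of the 6 pM libraries alone. Of the 198 higher genes, 193 had a positive difference in p1 and 192 in p2, and of the 168 lower genes 162 and 161 had a negative one. Chromosomes 8 and 11, which held 99 of the lower genes, had negative medians there too. These were -0.23 and -0.25 in p1 and -0.25 and -0.22 in p2. Libraries of the same number may come from the same culture, so the domains are not independent.

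Side by side, Grb10 had log2 differences of -4.26 in pM, -3.74 in p1 and -3.10 in p2, and Hnrnph1 of -2.06, -1.58 and -1.82. Cth stood at 1.43, 1.46 and 1.54, and Xlr3a at 3.48, 2.76 and 2.65. Fgfbp3, at 1.01 in pM, stood at 0.22 in p1 and 0.21 in p2, and Dlk1, at 1.15 in pM, stood at -0.66 and 0.13, and neither difference between domains passed. The stress response list had medians of 0.45 in p1 and 0.47 in p2 beside 0.48 in pM, and ribosomal protein genes of 0.40 and 0.65 beside 0.41.

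**Figure D5:**
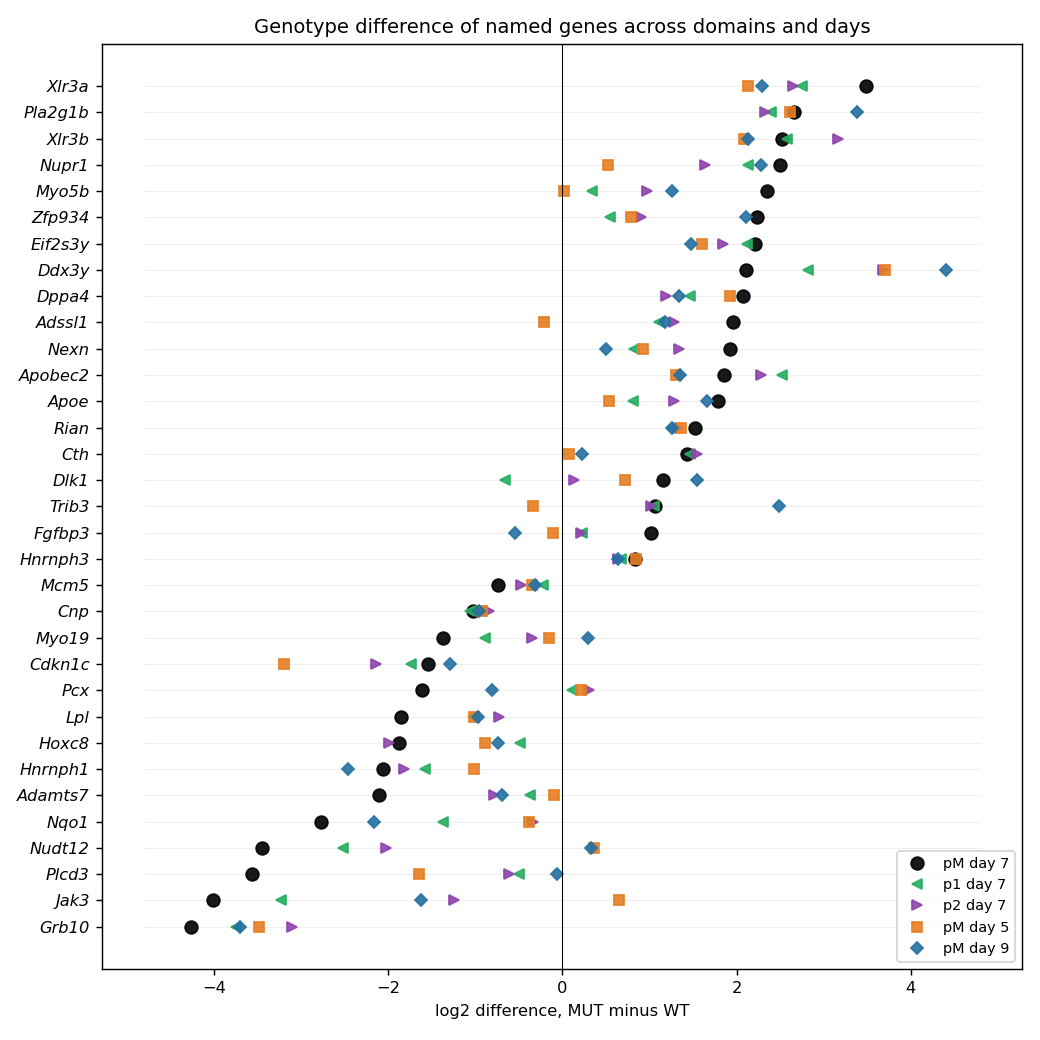
Log2 difference (MUT minus WT, horizontal axis) of 33 named genes in pM on day 7 (black circles), in p1 and p2 on day 7 (triangles), and in pM on days 5 and 9 (squares and diamonds). Grb10, Hnrnph1, Cnp, Xlr3a, Xlr3b and Hnrnph3 keep their side of zero in every set, while Cth is at 0.08 on day 5 and 0.23 on day 9.

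Day 5 had 3 MUT and 2 WT pM libraries. Under the replicate block, the MUT library that lacks a WT partner adds nothing to the genotype difference. The day 5 test therefore rests on 2 pairs. In it 8 genes (0.0604%) passed, namely Grb10, Cdkn1c, Xlr3a, Hoxb5os, Hnrnph3, Ddx3y, Rbmx and Kcnq1ot1. Grb10 stood at 254, 231 and 162 in MUT and at 2196 and 2137 in WT, where 254 belongs to the unpaired library. Its difference was -3.48 ± 0.22 (limma adjusted p = 5.87e-08), so Grb10 was among the 3 genes (0.0227%) lower on day 5. Cdkn1c was at -3.20 ± 0.34. Of the 168 genes lower on day 7, 138 had a negative difference on day 5 (82.1%), and of the 198 higher genes 107 had a positive one (54%). The stress response list had a median of -0.16 on day 5 with no calls, and the ribosomal protein list one of -0.05, against 0.48 and 0.41 on day 7. A test of the change from day 5 to day 7, added after seeing the data, called none of 13236 genes (0%) in limma, with 1411 at an unadjusted p below 0.05.

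On day 9, with 2 NFIAn pairs, 131 genes (0.99%) passed, 82 higher (0.62%) and 49 lower (0.37%). The count was 1 without the block, 1 without the filter on low values, and 13 or 29 with replicate 1 or 3 of day 9 left out, where each genotype keeps a lone library assumed to vary like the other days. Grb10 stood at 319 and 162 in MUT and at 3643 and 2439 in WT, a difference of -3.71 ± 0.22. Of the day 7 calls, 24 higher and 14 lower genes passed again in the same direction and 1 passed in the opposite direction, and 140 of 198 and 137 of 168 kept their sign. Serpinf1, a secreted factor that acts on neurons, had differences of 0.98 on day 7 and 2.21 on day 9, and Rbm3 of -1.19 and -1.96. The stress response list had a median of 0.21 on day 9, with Chac1 at 1.60 called, and Cth was at 0.23 ± 0.20. On day 11 Grb10 read 62.2 and 59.1 in MUT and 1428 and 1215 in WT, but the WT cells of that day are NFIAp, so genotype and gate cannot be told apart.

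The difference itself changed from day 7 to day 9 for 5 genes (0.0378%), upward for 4 (0.0302%) and downward for 1 (0.00756%). They are Mcm10, the mitotic kinase gene Plk1, the glucose and lactate transporter genes Slc2a3 and Slc16a3, and Sparc, a matrix protein. Mcm10 fell in MUT on day 7 (-0.76) and was higher on day 9 (1.38 ± 0.20). The G2 and M phase list, with 1 call and a median of 0.05 on day 7, had 7 higher calls of 30 and a median of 0.57 on day 9, and the hypoxia and glycolysis list went from 1 call and 0.07 to 6 of 33 and 0.53. Over all genes 0.62% were higher on day 9, and the median was 0.02. The test of the change itself called only 1 of the 30 and 2 of the 33. Of 16 tested mesenchyme and smooth muscle genes 13 had a positive difference on day 9, with 1 call, and the median change of their difference from day 7 to day 9 was 1.55. Their part in these changes was not tested.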

How the data were processed

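RNA from sorted, glyoxal-fixed cells was extracted and polyadenylated RNA sequenced, per the labels' protocols. The deposited table holds a normalised read count (signal) per gene and library. Per the submitters' processing notes mm10 and DESeq2 were used, with no versions or annotation given. How multi-mapping reads and strand were treated is not given in the sources used here. Each deposited value was a whole multiple of the value of 1 read within a tolerance of 0.01, so whole reads were recovered for 100% of values.

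Genes with a value of 10 or more in at least 2 of the 6 libraries were kept, and log2(value + 1) was fitted with limma 3.58.1 (R 4.3.3, intensity trend) with replicate number as a block. Fold changes are on that scale, which understates changes of low genes. P-values are two-sided and Benjamini-Hochberg adjusted over 13236 genes, with a threshold of 0.05. The spread was shared over genes, giving 24.19 degrees of freedom, and day 7 p1 and p2 values come from a fit of 18 libraries. Numbers pair the libraries by a rule that every same-number correlation of deviations exceed 0.1 (0.32, 0.27 and 0.47). The rule cannot tell replicates 1 and 2 apart, since MUT 1 with WT 2 (0.28) and MUT 2 with WT 1 (0.17) exceeded 0.1 as well. edgeR 4.0.16 and DESeq2 1.42.0 on recovered reads, TMM scaling, other filters and a pseudocount of 8 were alternatives. Positions are from GENCODE M21 (GRCm38). The 12 largest rises and falls were named among called genes, gene models and the like passed over, whose higher genotype averaged 50 or more and whose libraries do not overlap, with 41 regulators and up to 4 called genes of each list. The members and lists were chosen with earlier results of these data known. Code was tested on simulated data.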

Additional observations from a re-analysis of the deposited data

Results flagged for a closer look

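The genotype difference changed between day 7 and day 9 for 5 genes, by a limma test of that change over the pM libraries of both days. Mcm10, a factor that starts the replicative helicase, changed by 2.14 ± 0.26 on the log2 scale (limma adjusted p = 0.00243), from -0.76 on day 7 to 1.38 on day 9, where MUT libraries stood at 670 and 445 and WT libraries at 282 and 155. Slc2a3, a neuronal glucose transporter, changed by 2.12 ± 0.33 (limma adjusted p = 0.0183), from 0.07 to 2.19. Slc16a3, a lactate transporter, changed by 1.46 ± 0.25 (limma adjusted p = 0.0459), from -0.18 to 1.28. Plk1, a mitotic kinase, changed by 1.28 ± 0.20 (limma adjusted p = 0.0183), from -0.34 to 0.94. Sparc, a matrix protein, changed by -1.42 ± 0.22 (limma adjusted p = 0.0183), from 0.16 to -1.26. No gene passed without replicate 1 of day 9, a fit that leaves 1 library per genotype on that day and takes its spread from the other days, and 15 passed without replicate 3 of day 7.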

How the results depend on the processing

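None of the 57 named genes that passed reversed its direction in the alternatives run. The sign of named genes near 0 depends on the replicates kept. Isl1, for example, was higher in MUT in replicates 1 and 2 and lower in replicate 3. Some list medians did reverse, and not only those near 0. Without replicate 1 the motor neuron one went from 0.14 to -0.03. Without replicate 3 the postmitotic neuron median went from 0.03 to -0.04, the proneural one from -0.02 to 0.05, the FGF one from 0.27 to -0.11 and the G2 and M phase one from 0.05 to -0.002, and without replicate 2 the ribonucleoprotein one went from -0.02 to 0.07. Against 366 calls on day 7 (198 higher, 168 lower), the fit without the replicate block gave 2 (1 and 1), a pseudocount of 8 gave 563 (309 and 254), no filter 196 (100 and 96), removal of the length and GC trend 215 (108 and 107), removal of chromosome medians 147 (92 and 55), and DESeq2 710 (411 and 299). Leaving out a replicate gave 57 to 438 calls (36 to 211 higher, 21 to 244 lower), with 114 (58 and 56) without replicate 1 and 57 without both replicate 3 and the block. Of the 366 genes, 342 were called by DESeq2, 360 with TMM scaling and 363 by edgeR. Grb10 and Xlr3a passed under all 14 alternatives. The fits with chromosome medians or the length and GC trend removed, and that without both replicate 3 and the block, were chosen after seeing the data.

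Day 5 gave 8 calls, against 3 without the block, 15 with a pseudocount of 8, 1 without the filter, 3 with chromosome medians removed and 6 to 10 leaving out a replicate. Day 9 gave 131, against 1 without the block, 1 without the filter, 267 with the length and GC trend removed, 64 with chromosome medians removed and 13 to 29 leaving out a replicate, which leaves 1 library per genotype with its spread assumed from the other days. The change from day 7 to day 9 gave 5, against 0 without the block, 10 with a pseudocount of 8, 0 without the filter and 0 to 15 leaving out a replicate. The median of chromosome 11 minus that of all genes was -0.23, and -0.24 to -0.19 leaving out a replicate. That of chromosome 13 was 0.14, and 0.082 with the length and GC trend removed. The cause of these changes was not tested. Values of low genes rest on few reads.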
